A study of Rattus norvegicus with 4 samples.

Results

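The circadian clock genes described here are Arntl, Clock, Per1, Per2, Per3, Cry1, Cry2, Nr1d1, Nr1d2 and Dbp, and they were taken as every probe, other than controls, whose gene name in the array files is one of these. This gave 16 of 30367 probes, and all 10 genes had a probe that entered the test of 12858 genes, 9 of them well above background on all 4 arrays. The reference gene table now calls Arntl by the symbol Bmal1, and the name of the files is kept here. The series holds 4 Agilent arrays with 1 colour and probes of 60 bases, 2 for rats given saline (saline 1 and 2) and 2 for rats given liposomes, small lipid vesicles (liposome 1 and 2). All were male WKAH rats of 8 to 12 weeks, and spleens were taken 24 h after the injection. Beads removed the spleen cells that carry MHC class II and then kept those that carry CD11b/c, a myeloid integrin, and the RNA of this fraction was labelled with Cy3. The liposomes' composition and dose, and the hour of day at which spleens were taken, are not given in the sources used here, so the values are levels at 1 time and hold neither a phase nor an amplitude. Whether each array stands for a separate animal is not in the labels, so the p-values describe the spread of these 4 samples alone, and that spread may be technical.

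The clock is a feedback loop of transcription that runs in most mammalian cells, macrophages included. ARNTL (BMAL1) and CLOCK bind E-boxes as a pair and activate the Per and Cry genes, whose proteins return to the nucleus and inhibit that pair. In a second loop the nuclear receptors REV-ERB alpha and beta, the products of Nr1d1 and Nr1d2, repress Arntl, and DBP carries the rhythm to output genes through D-boxes.

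The windows before the transcription starts are shown first, with the short motifs tied to the loop where they were found. They are 250 bases long and come from RefSeq on assembly GRCr8, which has an entry for 9 of the 10 genes, Cry1 being the one without. The motifs searched on both strands were the E-box CACGTG, the E-prime box CACGTT, the D-box TTATGNAA, the nuclear receptor half-site AGGTCA that REV-ERB can bind, and the cyclic AMP response element TGACGTCA. No 2 of the matches shown overlap. The windows of Per2, Arntl, Cry2 and Dbp are printed whole, with each match in capitals: Per2 passed the test, Cry2 and Dbp came next by p-value, and Arntl is the activator whose groups did not overlap. Per2 lies on the minus strand at chr9:99496994-99497243, Arntl on the plus strand at chr1:176766078-176766327, Cry2 on the minus strand at chr3:98860438-98860687 and Dbp on the plus strand at chr1:105312006-105312255.
Per2: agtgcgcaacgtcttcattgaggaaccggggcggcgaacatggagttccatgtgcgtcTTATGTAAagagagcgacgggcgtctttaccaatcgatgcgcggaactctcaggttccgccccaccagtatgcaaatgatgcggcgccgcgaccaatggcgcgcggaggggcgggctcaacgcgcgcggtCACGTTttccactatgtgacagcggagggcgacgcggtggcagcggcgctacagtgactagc
Arntl: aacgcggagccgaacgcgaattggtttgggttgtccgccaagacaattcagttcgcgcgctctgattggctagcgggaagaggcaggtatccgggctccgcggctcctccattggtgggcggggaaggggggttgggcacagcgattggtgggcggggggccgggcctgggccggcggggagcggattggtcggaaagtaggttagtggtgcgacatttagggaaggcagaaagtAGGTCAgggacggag
Cry2: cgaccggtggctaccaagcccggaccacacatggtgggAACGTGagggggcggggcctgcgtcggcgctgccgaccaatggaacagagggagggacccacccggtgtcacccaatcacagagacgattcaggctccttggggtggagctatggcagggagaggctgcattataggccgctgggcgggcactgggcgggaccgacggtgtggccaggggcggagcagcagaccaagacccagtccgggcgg
Dbp: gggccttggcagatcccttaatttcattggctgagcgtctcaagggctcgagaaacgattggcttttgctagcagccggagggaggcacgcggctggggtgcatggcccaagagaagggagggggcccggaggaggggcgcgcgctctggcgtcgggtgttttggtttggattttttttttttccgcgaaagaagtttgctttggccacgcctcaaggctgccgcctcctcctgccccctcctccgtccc

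The Per2 window held an E-prime box that begins 62 bases before the start and a D-box that begins 192 bases before it. Of all 33469 RefSeq windows of this length, 4.07% held an E-prime box and 3.28% a D-box. The Arntl window held 1 half-site, 15 bases before the start, a motif found in 14.1% of all windows. The Cry2 window held an E-prime box on the other strand, 212 bases before the start. The Dbp window held none of the 5 motifs, which says only that these letters are not in it. Both REV-ERB genes had a match before their first start, an E-prime box on the other strand at 174 bases for Nr1d1 and a half-site at 187 bases for Nr1d2, and the 30 bases around each, on the minus strand at chr10:84231969-84231998 and on the plus strand at chr15:9954835-9954864, read as follows.
Nr1d1: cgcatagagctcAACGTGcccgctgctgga
Nr1d2: gattggaaggagAGGTCAggaacgcgcata

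A second entry of Nr1d1, which lies inside the gene, held an E-box 191 bases before its start (5.59% of all windows held one). No motif was found in the windows of Clock, Per1 and Per3, of which those of Per1 and Per3 and a second one of Clock lie inside the gene as RefSeq draws it. A match is a description of letters, not a measured binding site.

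The question of the comparison was how the clock loop differed between the fractions of liposome-loaded and saline-loaded rats. Of the 10 genes, 1 fell on the liposome arrays and 0 rose at an adjusted p under 0.05 (limma, Benjamini-Hochberg over 12858 genes), where 8.93% of all genes tested were called, 4.85% as higher and 4.08% as lower. The gene that fell was Per2, 1.65-fold lower with liposomes. Cry2 and Dbp had higher means with liposomes, 2.35-fold and 1.52-fold, and missed the threshold. The median difference of the 10 genes was 0.058 on the log2 scale, beside -0.035 for all genes. The groups did not overlap for 6 of the 10 genes, 3 higher and 3 lower with liposomes, beside 65.4% of all genes tested (30.3% higher and 35.1% lower), so that this count lies near the background. Levels are given below as log2 of a probe's intensity over the 75th percentile of its array, so that a level of 0 is that percentile, and levels of different probes cannot be compared. In bulk RNA such as this, fewer cells of a type and less RNA per cell cannot be told apart.

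**Figure D1:**
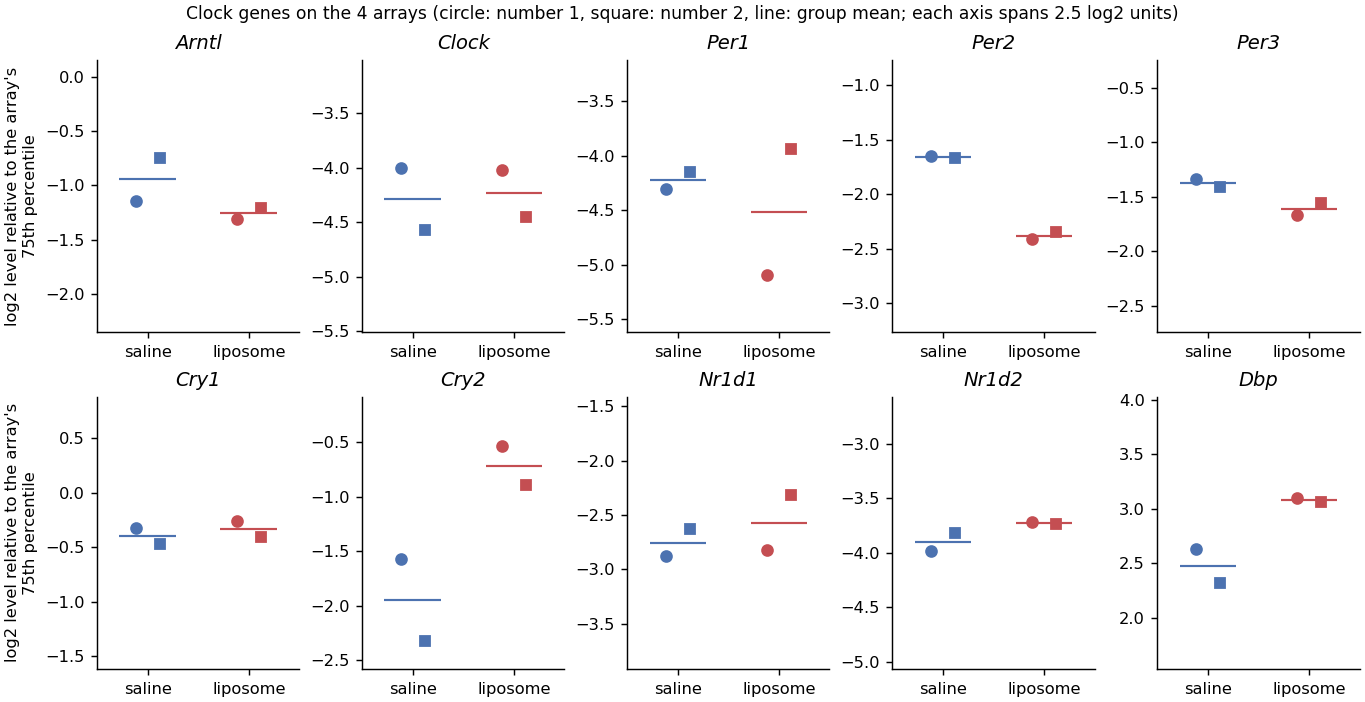
Log2 level of each of the 10 clock genes relative to the array's 75th percentile (y axis, a span of 2.5 log2 units in each panel) for the 2 saline and the 2 liposome arrays. Circles are arrays numbered 1, squares arrays numbered 2 and lines group means. Per2 shows close pairs set apart by group, Cry2 and Dbp lie higher on both liposome arrays, and Clock, Per1, Cry1 and Nr1d1 overlap.

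Among the activators, Arntl had log2 levels of -1.14 and -0.75 on saline 1 and 2 and of -1.31 and -1.20 on liposome 1 and 2. Both liposome arrays were below both saline arrays, and the gap from saline 1 to liposome 2 was smaller than the gap between the saline arrays. The difference, liposome minus saline, was -0.31 ± 0.17 (SE, n = 2 arrays a group, 95% interval -0.77 to 0.14, limma adjusted p = 0.272). A second Arntl probe, nearer the 5′ end of the transcript, had levels of -3.03 and -3.45 with saline and -3.70 and -3.84 with liposomes, a difference of -0.54 ± 0.18 (limma adjusted p = 0.136 over all passing probes, of which 6.81% were called). Both probes were thus lower with liposomes, but they disagreed on the saline arrays, where the first was higher on saline 2 and the second on saline 1. On rat assembly rn4, used by the array files, the first lies at chr1:171161969-171162028 and the second at chr1:171154767-171154826. An rn4 annotation was not used, and exon, intron or UTR is therefore left out for every probe.

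Clock, which encodes the DNA-binding partner of ARNTL and itself acetylates histones, was dim, with log2 levels of -4.00 and -4.58 with saline and -4.02 and -4.45 with liposomes. Both arrays numbered 2 were the lower ones, and the groups overlapped. The difference was 0.053 ± 0.26 (95% interval -0.66 to 0.76, limma adjusted p = 0.905), so that a change of either sign of about this width could not be seen. The probe, at chr14:34243744-34243803, was well above background on both saline arrays and on liposome 1 but not on liposome 2. The other Clock probe was not well above background on any array.

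Of the period genes, which encode the PAS-domain repressors that carry the CRY proteins, Per2 was the one that passed. Its log2 levels were -1.65 and -1.67 with saline and -2.41 and -2.35 with liposomes. The 2 arrays of a group differed by -0.022 (saline 2 minus 1) and 0.057 (liposome 2 minus 1), and the groups were far apart beside that. The difference was -0.72 ± 0.10 (SE, n = 2 arrays a group, 95% interval -0.98 to -0.46, limma adjusted p = 0.0307), and it was -0.76 between the arrays numbered 1 and -0.68 between those numbered 2. By p-value Per2 was gene 520 of 12858. Per2 missed the threshold when any 1 array was left out (limma adjusted p = 0.0567 to 0.206, difference -0.75 to -0.69) and when dim probes were not filtered (0.240).

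The Per2 probe, at chr9:90645610-90645669, is printed 10 times on each array, which gives its measuring error within an array. Every other member probe, those of Cry2 and Dbp included, has 1 spot an array. The Per2 level is thus a mean over spots, and its closeness between arrays cannot be set against that of the other members like for like. How far this lowered its spread was not tested. Its mean processed intensity was 313 ± 14.6 (SD, 10 spots) on saline 1 and 318 ± 22.8 on saline 2, against 209 ± 17.5 on liposome 1 and 211 ± 19.8 on liposome 2. The lowest saline spot read 283 and the brightest liposome spot 260, so no spot of one group reached the other even before scaling. These spots share 1 RNA sample an array and are not replicates of the treatment.

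**Figure D2:**
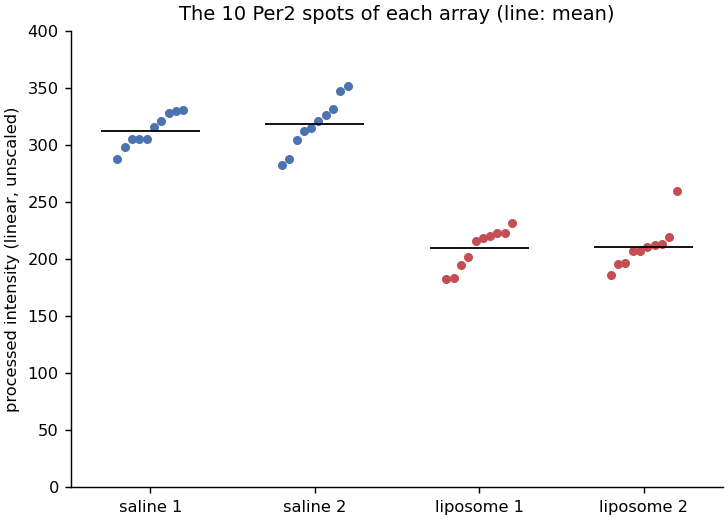
Processed intensity, on a linear scale and before scaling between arrays, of the 10 spots of the Per2 probe on each of the 4 arrays (points), with the array's mean as a line. Saline spots run from 283 to 352 and liposome spots from 182 to 260, without overlap.

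Per3, the period gene least needed for the rhythm itself, had log2 levels of -1.34 and -1.41 with saline and -1.67 and -1.56 with liposomes. Both liposome arrays were the lower ones, by a difference of -0.24 ± 0.10 (95% interval -0.52 to 0.041, limma adjusted p = 0.196). Its probe lies at chr5:168152779-168152838, and 2 further Per3 probes were not well above background on any array. Per1, which is also induced directly by stress signals in many tissues, had log2 levels of -4.30 and -4.15 with saline and of -5.09 and -3.94 with liposomes. The liposome arrays were the lowest and the highest of the 4, 1.15 apart. The difference of -0.29 ± 0.41 (95% interval -1.40 to 0.82, limma adjusted p = 0.652, probe at chr10:55866200-55866259) was therefore within the spread of 1 group.

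The cryptochromes encode the repressors that bind CLOCK and ARNTL on DNA, and here the pair did not show the same pattern. Cry1 had log2 levels of -0.32 and -0.47 with saline and -0.26 and -0.41 with liposomes. The groups overlapped, and the difference of 0.064 ± 0.12 had a 95% interval of -0.25 to 0.38 (limma adjusted p = 0.733, probe at chr7:20708985-20709044). Cry2 had log2 levels of -1.57 and -2.32 with saline and -0.54 and -0.89 with liposomes. Both liposome arrays were above both saline arrays, and the arrays numbered 2 were the lower ones in each group, by 0.75 on the saline and 0.36 on the liposome arrays. The difference of 1.23 ± 0.30 (95% interval 0.42 to 2.04) was the widest of the 10 genes and missed the threshold (limma adjusted p = 0.0768). It was past it without saline 1 (1.61, adjusted p = 0.0487). The Cry2 probe lies at chr3:76802802-76802861. The difference between Cry1 and Cry2 was not tested.

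The REV-ERB genes, whose products also set the inflammatory tone of macrophages, showed small differences. Nr1d1 had log2 levels of -2.88 and -2.63 with saline and -2.82 and -2.32 with liposomes. Its groups overlapped, with liposome 2 the highest, and the difference was 0.18 ± 0.21 (95% interval -0.40 to 0.76, limma adjusted p = 0.580). Nr1d2 had log2 levels of -3.98 and -3.82 with saline and -3.72 and -3.74 with liposomes. Both liposome arrays were above the saline arrays, by 0.17 ± 0.11 (95% interval -0.12 to 0.47, limma adjusted p = 0.330). The Nr1d1 probe maps to chr10:87543165-87543519, a span longer than the probe, and the files give no position for the Nr1d2 probe.

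Dbp, the output factor whose transcript swings widely over the day in many tissues, had log2 levels of 2.63 and 2.32 with saline and 3.097 and 3.063 with liposomes. Both liposome arrays were the higher ones, and they lay closer to each other than the saline arrays did. The difference was 0.60 ± 0.14 (95% interval 0.22 to 0.99) and missed the threshold (limma adjusted p = 0.0735). It passed with the array median in place of the 75th percentile (adjusted p = 0.0447) and with normexp background correction (0.0416). The array holds 3 Dbp probes, which differed by 0.40, 0.46 and 0.60 between the groups, all higher with liposomes, with p-values adjusted over all passing probes of 0.131, 0.108 and 0.0806 in limma. The last of these, which gave the values above, lies at chr1:96178423-96178482. The 3 genes whose pattern over the 4 arrays was nearest to that of Dbp, of 12162 genes well above background on all arrays, were Mex3c, Rab32 and Slc25a24, at Euclidean distances of 0.0348, 0.0487 and 0.0512 between gene-centred log2 values. As these genes were picked by the same 4 values, their group differences had to lie near that of Dbp. The differences were 0.59 to 0.63, and each gene, like Dbp, missed the threshold (limma adjusted p = 0.0648 to 0.0846).

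**Figure D3:**
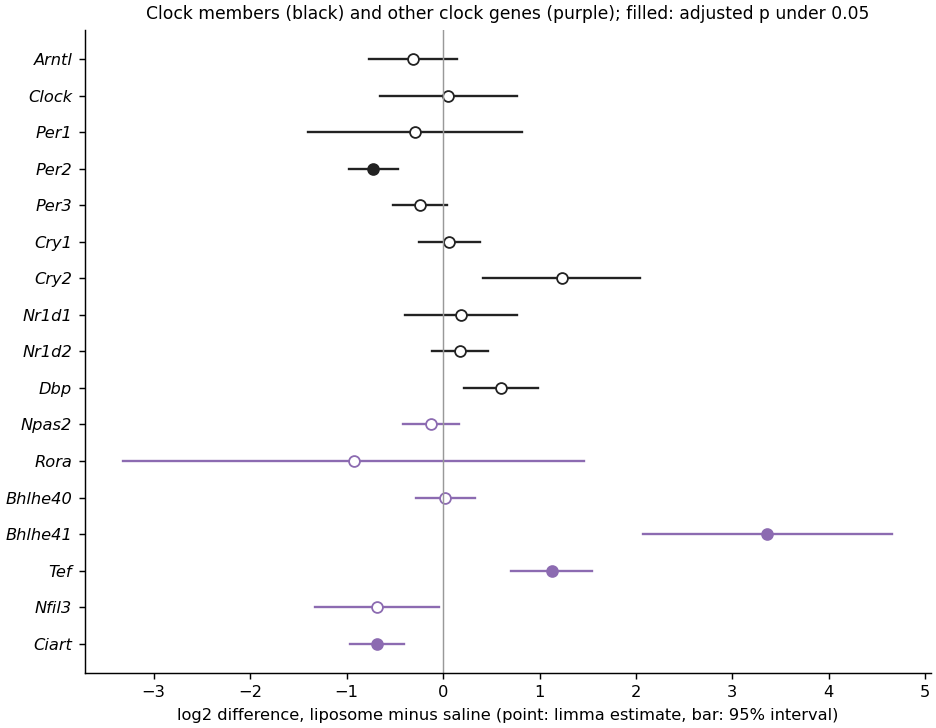
Log2 difference, liposome minus saline, for the 10 clock genes (black) and 7 other clock genes (purple), as limma estimates with 95% intervals; filled points passed the adjusted threshold of 0.05. Per2 and Ciart lie below 0 and Tef and Bhlhe41 above it as filled points (Bhlhe41 entered the test only through the liposome arrays), and the interval of Rora is the widest because one of its saline arrays stands far from the other.

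The limbs of the loop were set side by side as the mean of their genes' log2 levels, each gene taken relative to its own mean over the 4 arrays, with no test. The activators Arntl and Clock stood at 0.11 and 0.020 on saline 1 and 2 and at 0.017 and -0.15 on liposome 1 and 2, a group difference of -0.13. The 5 Per and Cry genes stood at 0.080 and -0.089 with saline and at -0.077 and 0.086 with liposomes, a group difference of 0.0089, with Per2 and Cry2 on opposite sides of 0. The REV-ERB genes stood at -0.19 and 0.013 with saline and at -0.032 and 0.21 with liposomes, a group difference of 0.18. Over all 7 repressors minus the activators, the arrays stood at -0.11, -0.080, -0.082 and 0.27. Liposome 1 thus lay with the saline arrays and liposome 2 alone lay higher, and the group difference of 0.19 was about the pooled SD of the arrays, 0.18. Without Clock, which was not well above background on every array, that group difference was 0.37.

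**Figure D4:**
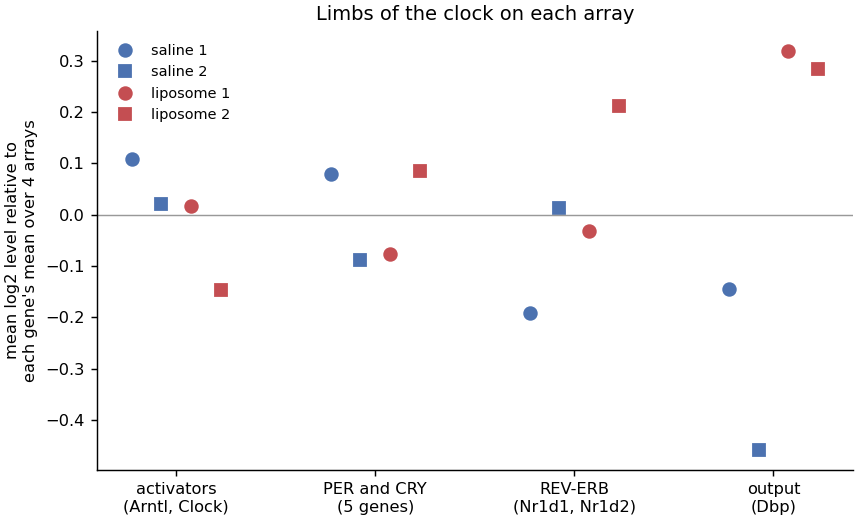
Mean log2 level of the genes of each limb, each gene relative to its mean over the 4 arrays (y axis), for the activators (2 genes), the PER and CRY genes (5), the REV-ERB genes (2) and Dbp; each point is 1 array. Both repressor groups overlap between saline and liposome arrays. The activators do not, though saline 2 and liposome 1 nearly meet (0.020 and 0.017), and Dbp lies clearly apart.

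Arrays of the same group also differed in these genes, and the arrays are titled exp1 and exp2 in both groups, which may stand for a shared experiment, though the labels do not explain it. For 7 of the 10 genes the difference between array 2 and array 1 had the same sign with saline and with liposomes. With group and number in 1 limma fit, no clock gene passed the threshold for the number, nor did any of the 12858 genes tested (0% called, 1205 genes at an unadjusted p under 0.05). The 3 clock genes at an unadjusted p under 0.05 were Clock, lower on number 2 by -0.50 (limma, adjusted p = 0.347), Cry2, also lower, at -0.56 (adjusted p = 0.409), and Nr1d1, higher at 0.38 (adjusted p = 0.49998). For Clock, Nr1d1, Cry1 and Per1 the number difference was larger in size than the group difference (0.65 against -0.29 for Per1). For the other 6 genes, Per2, Cry2 and Dbp among them, the group difference was the larger one. The group difference had the same sign within number 1 and within number 2 for 8 of the 10 genes, the exceptions being Clock and Per1. The shares of all genes with such matching signs were not computed, so neither count of matching signs can be set against a background.

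The number also went with markers of other cells. The median of 10 natural killer cell markers was higher on array 2 than on array 1 by 1.67 log2 units with saline and 1.62 with liposomes, and that of 10 T cell markers by 1.31 and 0.91. The part of these cells in the differences of Clock, Cry2 and Nr1d1 between same-group arrays was not tested.

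**Figure D5:**
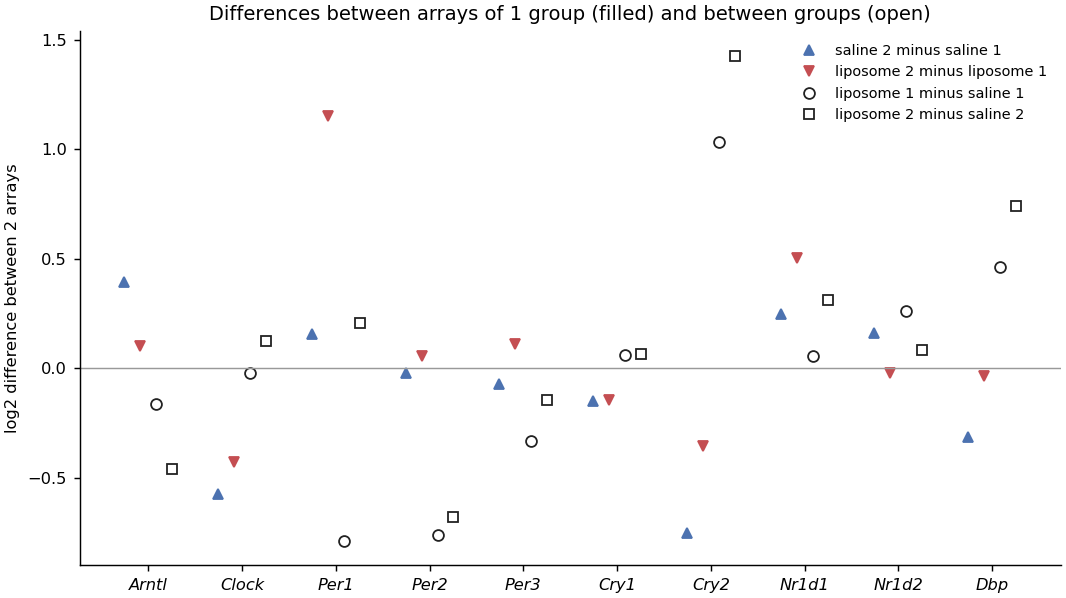
Log2 differences between pairs of arrays for each clock gene: within a group (filled triangles) and between groups at the same title number (open circle and square). For Per2 the filled points lie at -0.022 and 0.057 and the open ones at -0.76 and -0.68, whereas for Per1 the 2 liposome arrays are 1.15 apart, more than either open point is from 0.

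The spread of printing and scanning alone was read from 1389 replicated probes, with 8 to 10 spots an array left without outlier spots. Among such probes as bright as the Per2 probe the median SD between spots was 0.0876 on the log2 scale, and for those as bright as Clock and Per1 it was 0.181 and 0.192. Around Cry2 it was 0.0726. This spread leaves out any difference between samples. For Clock and Per1, which each have 1 spot of the probe used, less of an array difference can be told from this spread than for the brighter Dbp (0.0488).

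Beside these 10 genes, a list of other clock transcription factors and outputs held 18 genes, of which 15 were tested, 2 rose, 1 fell and 12 did not pass, with a median difference of -0.12. Of all genes tested, 8.93% were called. Tef, a D-box activator of the family of Dbp, rose. Its log2 levels were -0.33 and -0.69 with saline and 0.59 and 0.64 with liposomes, a difference of 1.12 ± 0.16 (limma adjusted p = 0.0331). It missed the threshold without liposome 1 (0.170) or liposome 2 (0.176) and kept it without either saline array. Ciart, whose product CHRONO represses CLOCK and ARNTL, fell. Its levels were 0.18 and 0.31 with saline and -0.42 and -0.46 with liposomes, a difference of -0.68 ± 0.10 (limma adjusted p = 0.0375). It missed the threshold with the array median as the scale (0.0565) and without any 1 array (0.0563 to 0.216).

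Bhlhe41, whose product DEC2 competes for E-boxes, is the other gene counted as risen. On both saline arrays it was not well above background, so it entered the test only through the liposome arrays and had to lie higher there, and its call is no independent support. It stood at -2.49 and -3.46 on the liposome arrays, at least 3.69-fold higher with liposomes (limma adjusted p = 0.0345, a p that uses these dim saline values). Its call was lost with quantile normalization (0.0530) and without saline 1, liposome 1 or liposome 2, and its fitted difference was 3.36 ± 0.48, against 1.17 after normexp correction. Without the filter on dim probes none of Tef, Ciart and Bhlhe41 passed (limma adjusted p = 0.225 to 0.258). Bhlhe40, the close relative of Bhlhe41, differed by 0.022 (limma adjusted p = 0.907). Nfil3, the D-box repressor that opposes DBP and TEF, stood at 1.92 and 1.89 with saline and at 0.90 and 1.54 with liposomes, -0.69 ± 0.24 (limma adjusted p = 0.137). Npas2, which can stand in for Clock, differed by -0.12 (limma adjusted p = 0.458). Rora, an activator of Arntl, stood at -4.81 and -2.33 with saline and at -4.81 and -4.18 with liposomes, a difference of -0.93 ± 0.88 (0.505) that was 0.32 without saline 2.

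The genes past the threshold in that list had E-boxes in their RefSeq windows, a motif that 5.59% of all windows held. The 30 bases around each E-box on GRCr8 are shown for comparison with the Per2 window, which had none. Nampt, Wee1 and Klf10, tested but not past the threshold, had no RefSeq entry to search. Whether E-boxes go with the calls was not tested. The share over all windows is no background for a list chosen as clock genes. Ciart held 3, at 93, 35 and 21 bases before the start, of which the last pair stands in 1 stretch (minus strand, chr2:186112322-186112351 and chr2:186112257-186112286). Tef held 1 at 198 bases (plus strand, chr7:115206617-115206646) and Bhlhe41 1 at 48 bases (minus strand, chr4:180569386-180569415). Bhlhe40, which differed little, held 1 as well, at 220 bases (plus strand, chr4:143174218-143174247). The windows of Ciart and Tef lie inside the gene as RefSeq draws it.
Ciart at 93: tgtatctagagtCACGTGttgccggcaaag
Ciart at 35 and 21: ggaggCACGTGcagagccgCACGTGtctgg
Tef: cacctggcccagCACGTGtctacatcgttt
Bhlhe41: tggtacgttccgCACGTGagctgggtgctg
Bhlhe40: agcgttgtccaaCACGTGagactcatgtga

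A further list held 19 clock protein kinases, ubiquitin ligases and cofactors, some of which set the stability and activity of the PER and CRY proteins. Of these, 16 were tested and 0 passed in either direction, with a median difference of -0.083 (Fbxl21, Sirt1 and Prkaa2 were not tested). Glucocorticoids reset peripheral clocks and induce Per1, so a list of 12 glucocorticoid-induced genes, Per1 among them, was also read. Of the 11 tested, 0 rose and 1 fell, where 4.85% and 4.08% of all genes were called higher and lower. The list had 10 genes below 0, beside 6931 of all 12858 genes, and a median difference of -0.52 (Zbtb16 was not tested). The 1 gene above 0, Sgk1, was higher on both liposome arrays, by 0.71 ± 0.16 (limma adjusted p = 0.0697). The one that fell was Ddit4, an inhibitor of mTOR signalling, at 2.13 and 1.999 with saline and 1.34 and 1.17 with liposomes, a difference of -0.81 ± 0.12 (limma adjusted p = 0.0365, but 0.0583 to 0.202 without 1 array and 0.247 without the filter). Tsc22d3 and Fkbp5, both direct targets of the glucocorticoid receptor, differed by -0.39 and -0.047 (limma adjusted p = 0.295 and 0.887). The part of glucocorticoids in the clock gene differences was not tested.

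Some markers of the cells in the fraction also passed the threshold between the groups, as Per2 did. Summed levels are linear, relative to the array's 75th percentile. Of all genes tested, 4.85% were called higher and 4.08% lower. Of 12 macrophage markers 11 were well above background on all arrays, and 6 fell and 1, Mertk, rose, which entered the test only through the liposome arrays (median -0.69, summed level 112 to 114 with saline and 86.7 to 95.8 with liposomes). Of 8 neutrophil markers tested 0 rose and 5 fell (median -0.78, summed level 232 to 258 and 139 to 150; Mpo and Ltf were not tested). Of 7 erythroid markers tested 0 rose and 5 fell (median -1.33, summed level 78.1 to 80.6 and 28.2 to 29.5). Of 8 dendritic cell markers tested 0 rose and 4 fell (median -0.93, summed level 10.69 to 11.8 and 5.28 to 5.80; Xcr1 and Zbtb46 were not tested). None of 9 B cell, 10 natural killer and 10 T cell markers passed in limma, with medians of -0.68, -1.31 and -0.15 (summed levels 56.7 to 58.9 and 32.6 to 41.4, 38.1 to 120 and 16.2 to 48.1, 19.8 to 47.7 and 19.4 to 35.4; Eomes was not tested). The part of these cells in the clock gene differences was not tested. On the arrays, 61.3% to 66.3% of 42877 spots were well above background, and gene values correlated at 0.989 and 0.993 within groups and at 0.971 to 0.975 between them.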

How the data were processed

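What was deposited is the linear intensity of each spot. The submitters' processing notes name Agilent Feature Extraction, version 10.7.3.1. Background and spatial trend had been taken out within each array, per the file headers. The log2 of the deposited intensity was averaged over a probe's spots, without controls and outlier spots, and the array's 75th percentile was then subtracted. A probe entered if both arrays of a group had it well above background, and the brightest passing probe stood for a gene. Names came from RefSeq accessions for 18006 of 30367 probes and from the files for 8186, and 4175 had none. The fit was limma 3.58.1 in R 4.3.3 (lmFit, eBayes, 2 residual degrees of freedom and a prior of 2.27), tested on simulated data, with a Benjamini-Hochberg threshold of 0.05. It called 623 genes higher and 525 lower, and 834 and 449 with the array median as the scale. The smallest p of an exact permutation with 2 arrays a group is 0.333, and it was not run; the number of arrays limits the precision. An "at least" fold, for a gene dim in a whole group, sets the bright group's mean against a floor in each dim array, which is the lowest signal well above background there or the probe's own signal if that is higher.

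The members and lists were chosen with earlier results of these data known. Named were the members, every gene of the clock and glucocorticoid lists past the threshold (at most 8), and Npas2, Rora, Bhlhe40, Bhlhe41, Nfil3, Tef, Tsc22d3 and Fkbp5. Sgk1 was added as the 1 glucocorticoid-induced gene above 0. The titles end in exp1 or exp2 in both groups; whether this marks a shared experiment, animal or day is not said, and the differences between array 2 and array 1 correlated at 0.355 over genes between the groups, with only 2 pairs. Alternatives were another background correction, scaling, filter and probe rule, the number as a block, and each array left out.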

Additional observations from a re-analysis of the deposited data

How the results depend on the processing

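Per2 kept its sign and its side of the threshold with normexp background correction, quantile or median scaling, the filter on all arrays, the mean of probes and the title number as a block, and lost the threshold as described above. Over the clock and other named genes, 176 log2 differences kept sign and side of the threshold, 24 lost it, 4 gained it and 13 changed sign. All 24 losses were of genes called in the main fit, and the 176 include genes with no call to lose. Per2 and Ddit4 lost their calls in 5 of 11 alternatives each, Tef in 3 of 11, Ciart in 6 of 11 and Bhlhe41 in 5 of 10. Of the number differences 58 kept sign and side of the threshold and 1 changed sign. The 1148 calls over all genes became 1767 with normexp (883 lower), 1988 with the replicate block (1091 lower) and 0 without a filter on dim probes (0 higher, 0 lower, of 21971 genes in limma, 3000 at an unadjusted p under 0.05). With 1 array left out they ranged from 0 to 757 (0 to 479 higher, 0 to 365 lower): 735 without saline 1, 757 without saline 2, and 0 in limma without liposome 1 or liposome 2 (2169 and 2394 genes at an unadjusted p under 0.05). A lone array is then assumed to vary like the other group. For the title number the count of 0 became 23 with median scaling, 80 with normexp and 53 with probes well above background on all arrays. The cause of these shifts was not tested. With the replicate block Cry2 passed (limma adjusted p = 0.0190); none of the other 9 members changed its call under it. In the lists, the block added the calls of Klf9 and Klf10, both lower, to the other clock genes (2 higher, 3 lower) and 4 glucocorticoid-induced genes (5 lower in all). It also called 9 of 10 natural killer and 4 of 9 B cell markers lower, where the fit without it called 0 in limma, and added 2 macrophage, 2 neutrophil, 1 erythroid and 2 dendritic cell markers.

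The difference of the limb means was 0.37 without Clock, the member not well above background on all arrays. Signs turned for Clock with normexp (-0.084) and with 1 array left out (-0.23 to 0.34), and with 1 array left out for Cry1 (-0.011 to 0.14), Nr1d1 (-0.069 to 0.44), Per1 (-0.87 to 0.29), Bhlhe40 (-0.068 to 0.11), Rora (-2.17 to 0.32) and Fkbp5 (-0.29 to 0.19, and 0.029 with median scaling); none of these passed the threshold in any alternative run. The number difference of Arntl was -0.016 with the mean of its probes. Clock was not well above background on liposome 2, and 2 arrays a group limit every interval.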
